A study of Homo sapiens with 6 samples.

Results

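The genes described here encode the coat and the neck of caveolae, the small flask-shaped pits of the plasma membrane. They were *CAV1* and *CAV2* (caveolins), *CAVIN1*, *CAVIN2*, and *CAVIN3* (cavins), and *EHD2*, *PACSIN2*, and *PACSIN3* (neck proteins), which were found by Ensembl identifier as 8 of the 29483 genes in the expression table. They were chosen by function, with the FPKM values of these 6 libraries and the differences between the groups already known, so their differences between the groups are a description and no P-value is given for them. RNA was sequenced from HK-2 cells, an established line of immortalized human renal proximal tubular epithelial cells. All cells were exposed to 25 mM high D-glucose (HG) medium for 7 days. In the case group, 10 μM TEPP-46, which activates the glycolytic enzyme PKM2, was present for 1 further day, and the control group received no TEPP-46. Each group had 3 replicates. The study describes the replicates as independent, and the labels do not say how far back their cultures were separate, so P-values measure the spread between these samples of 1 line. No group without HG was measured, and a single cell line was used.

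Caveolin-1 inserts into the inner leaflet of the plasma membrane as a disc-shaped oligomer, with caveolin-2 as its partner in most cell types. Cavin-1 is required for caveolae to form, and it builds an outer coat on the caveolin patches together with cavin-2, which helps the membrane to bend, and cavin-3, which was first described as a partner of protein kinase C delta. EHD2 is an ATPase that sits as a ring around the neck and holds caveolae at the cell surface. PACSIN2 and PACSIN3 are F-BAR proteins that bend membranes, of which PACSIN2 is best known for shaping the neck. Caveolae flatten when a membrane is stretched, and they are abundant in endothelium, muscle, and adipocytes.

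The values were FPKM, the fragments of a gene divided by its length and by the reads of its library, so that levels can be compared between genes. Such a comparison depends on the gene length used. As derived from the FPKM values, this length was 6926 bases for *CAV2* and 4082 for *CAV1*. Reads assigned to genes numbered 18634891, 17924033, and 17378710 in control replicates 1, 2, and 3, and 16711934, 16047243, and 15363254 in case replicates 1, 2, and 3, as derived from the steps of the FPKM values. On the first principal component of all tested genes, which held 37.2% of the variance, case replicate 2 scored 9.53 and stood between case replicates 1 and 3 (30.4 and 34.4) and the control replicates (-27.8 to -22.9). Without case replicate 2 the log2 fold changes (case minus control) of the caveola genes were -0.04 for *CAV1*, 0.04 for *CAV2*, -0.35 for *CAVIN1*, -1.23 for *CAVIN2*, 0.56 for *CAVIN3*, -0.42 for *EHD2*, 0.07 for *PACSIN2*, and -0.05 for *PACSIN3*, beside the values over all libraries given with each gene.

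The cells were checked against cell type markers. All 5 epithelial markers were above a mean of 0.5 FPKM, and the most abundant, the keratin gene *KRT19*, was between 300 and 384 FPKM. None of the 7 proximal tubule markers (*AQP1*, *ANPEP*, *GGT1*, *LRP2*, *CUBN*, *SLC34A1*, and *SLC5A2*) reached a mean of 0.5 FPKM, and their highest value in any library was 0.206 FPKM, so that the label of proximal tubule was not borne out by these transcripts. Markers of cell types rich in caveolae were near 0, with a summed level of at most 0.0886 FPKM for endothelium (4 of 5 genes in the table), 0.102 FPKM for adipocytes (2 of 4), and 0.437 FPKM for muscle (5 of 5). In bulk RNA, fewer cells with a transcript and less transcript per cell cannot be told apart.

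Promoter sequences of RefSeq (GRCh38.p14) were matched for 5 of the 8 genes, and 3 of them are shown because they belong to the genes that fell after TEPP-46 (*CAVIN2* and *EHD2*) and to the core caveolin, which differed little between the groups (*CAV1*). Each window runs from 250 bases before to 50 bases after a transcript start in the RefSeq table, 5′ to 3′ on the strand of the gene. For *CAVIN2* and *EHD2* this start is also the outermost start of the gene in the GENCODE positions given below, and for *CAV1* it lies 15 bases inside it. For *CAV2* it is the start of the gene in RefSeq, while the GENCODE gene starts 212.4 kb farther out. For *PACSIN2* it lies 55.2 kb inside the gene in both annotations, so that window belongs to an inner start. The window of *CAVIN2* is chr2:191847039-191847338 (minus strand), that of *EHD2* is chr19:47713172-47713471 (plus strand), and that of *CAV1* is chr7:116524759-116525058 (plus strand). Capitals mark matches, on either strand, to any of 6 short motifs. The first was the TATA box, with the letters TATAAA. Another, known as the CCAAT box, is spelled by its name. The GC box, which Sp1 factors bind, was searched as GGGCGG. The AP-1 motif was searched as TGANTCA, where N stands for any base. The motif of TEAD factors, which act with YAP, was searched as CATTCC. The last was part of a heat shock element, searched as GAANNTTC.
CAVIN2: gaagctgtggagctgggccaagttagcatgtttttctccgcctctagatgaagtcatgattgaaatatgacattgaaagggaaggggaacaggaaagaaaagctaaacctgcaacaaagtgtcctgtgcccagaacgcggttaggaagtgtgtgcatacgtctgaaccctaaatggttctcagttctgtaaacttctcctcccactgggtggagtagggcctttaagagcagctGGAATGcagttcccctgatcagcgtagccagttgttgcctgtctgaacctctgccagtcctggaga
EHD2: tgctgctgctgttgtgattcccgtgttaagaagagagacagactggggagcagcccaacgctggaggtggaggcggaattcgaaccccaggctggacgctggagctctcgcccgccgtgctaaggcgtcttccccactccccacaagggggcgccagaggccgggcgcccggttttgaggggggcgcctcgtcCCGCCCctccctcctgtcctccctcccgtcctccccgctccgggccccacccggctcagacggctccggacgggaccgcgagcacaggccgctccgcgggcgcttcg
CAV1: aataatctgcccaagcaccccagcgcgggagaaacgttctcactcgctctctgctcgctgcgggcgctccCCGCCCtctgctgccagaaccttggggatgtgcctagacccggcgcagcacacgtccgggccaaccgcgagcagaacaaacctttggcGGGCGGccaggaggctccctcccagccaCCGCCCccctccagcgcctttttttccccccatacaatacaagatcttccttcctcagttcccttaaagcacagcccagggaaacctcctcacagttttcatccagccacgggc

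The window of *CAVIN2* held 5 CpG dinucleotides and 49.3% G and C, against medians of 14 and 58.7% over all 35116 promoters of this length. It held 1 match to the TEAD letters, which 14.0% of all promoters hold, and no GC box. *EHD2* (30 CpG dinucleotides, 71.0% G and C) and *CAV1* (19 and 62.3%) held 1 and 3 GC boxes, and *CAV2*, whose window is not shown, held 6 in a window at its RefSeq start with 82.7% G and C. A GC box was present in 45.0% of all promoters. No TATA box, CCAAT box, or AP-1 letters were found in the 5 windows, and these letters were present in 11.5%, 34.6%, and 7.71% of all promoters. The heat shock letters, which 6.77% of all promoters hold, were found among the 5 windows only in that of *PACSIN2* at its inner start (47% G and C), which also held the TEAD letters. A match is a description of letters and not a binding site.

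In untreated HG cells, *CAVIN1* was by far the most abundant of the 8 transcripts at 398 ± 4.58 FPKM (SD, n = 3), and by its mean over all libraries it stood at percentile 99.3 of the tested genes. It was followed by *CAVIN3* at 56.6 ± 3.91, *CAV1* at 51.8 ± 1.07, and *EHD2* at 49.5 ± 0.969 FPKM. *CAV1* and *EHD2* were separated by little more than their spread, and the ranges of *CAVIN3* and *CAV1* were 54.0 to 61.1 and 50.7 to 52.9 FPKM. *PACSIN2* followed at 27.4 ± 0.502 FPKM, *PACSIN3* at 21.3 ± 0.729, and *CAV2* at 20.8 ± 0.434, and the last pair overlapped. *CAVIN2* was the least abundant at 13.4 ± 0.548 FPKM. In the case group the order of *EHD2* and *CAV1* was clearer (34.4 ± 1.77 against 48.1 ± 3.03 FPKM), and *CAVIN3*, at 71.7 ± 10.3 FPKM, stood above *CAV1* in all 3 replicates.

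**Figure D1:**
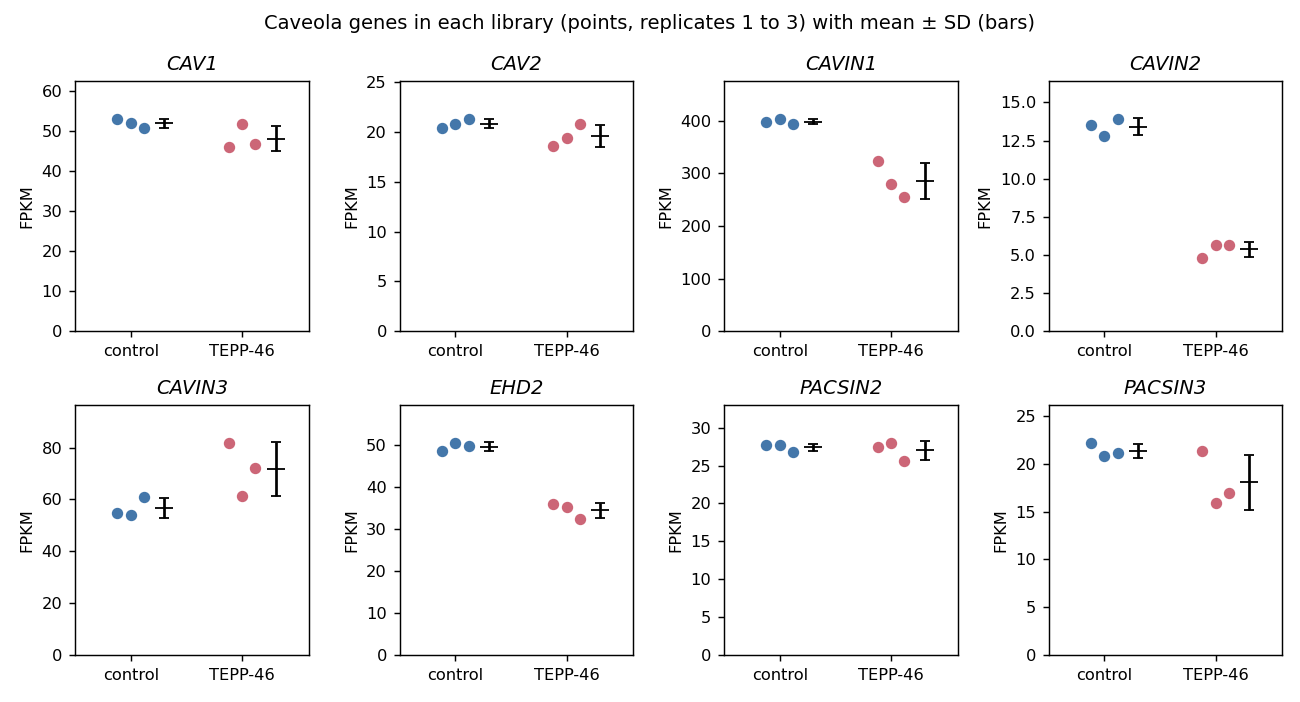
FPKM (y axes, from 0) of each caveola gene in the 3 control and the 3 TEPP-46 (case) libraries, with points for libraries and bars for mean ± SD. *CAVIN2*, *EHD2*, and *CAVIN1* sit lower in every case library than in every control library, *CAVIN3* sits higher with the narrowest gap (61.1 against 61.2 FPKM), and the other 4 genes overlap.

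For the comparison of the groups, limma was run on log2(FPKM + 0.1) after scaling between libraries for the 13599 genes whose mean FPKM reached 0.5, and differentially expressed (DE) genes are those with an adjusted p of at most 0.05. All 8 caveola genes passed the filter. Of them, 2 were downregulated DE genes and 0 were upregulated, beside 5.45% and 7.77% of all tested genes (13.2% in both directions). Without overlap of the groups, 3 were lower and 1 was higher in the case group, beside 19.2% and 20.6% of all tested genes (39.7% in both directions). Because the genes were listed with this comparison known, nothing is read from these counts. The median log2 fold change (case minus control) of the 8 genes was -0.09, beside 0.01 for all tested genes. The share of all tested genes that were DE genes moved with single libraries. It was 0.779%, 0.507%, and 0.559% without control replicates 1, 2, and 3, 1.23% without case replicate 3, 16.7% without case replicate 1, and 25.8% without case replicate 2, so calls gained or lost in these settings stand beside those shares.

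Among the coat genes, *CAVIN2* (ENSG00000168497, older symbol *SDPR*) fell most. It lies on chromosome 2 of GRCh38 from 191834310 to 191847088. Its FPKM was 13.5, 12.8, and 13.9 in control replicates 1, 2, and 3, and 4.78, 5.64, and 5.66 in case replicates 1, 2, and 3. In FPKM before scaling between libraries, the mean of the case group was 0.4 of that of the control group. No case replicate came near a control replicate. After scaling, the log2 fold change was -1.22 with a standard error of 0.09. It was -1.31, -1.20, and -1.14 in the 3 case replicates relative to the control mean. Between 258 and 813 reads per library covered the gene, so that counting error at the lowest depth was 6.23%, against a coefficient of variation of 9.36% between case replicates. Over the 19 alternative settings the log2 fold change ranged from -1.43 to -1.10.

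*CAVIN1* (ENSG00000177469, chromosome 17 from 42402449 to 42423256), whose product every caveola needs, had lower values in the case group but was not a DE gene. Its FPKM was 398, 403, and 394 in the controls and 323, 279, and 255 in case replicates 1, 2, and 3. The coefficient of variation was 1.15% between control replicates and 12% between case replicates. The groups did not overlap, while the size of the difference varied between case replicates. The log2 fold change was -0.39 ± 0.11 SE, from -0.15 in case replicate 1 to -0.56 in case replicate 3. The gene was called in 7 of the 19 alternative settings, among them without case replicate 1 (-0.52) and under quantile normalization (-0.74), and nothing is read from these calls. *CAVIN1* was covered by 15014 to 28407 reads per library, so counting error did not exceed 0.816%.

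*CAVIN3* (ENSG00000170955, chromosome 11 from 6318946 to 6320532) had the opposite sign. Its FPKM was 54.7, 54.0, and 61.1 in the controls and 81.8, 61.2, and 72.2 in case replicates 1, 2, and 3. Case replicate 2 was almost level with control replicate 3. The log2 fold change was 0.43 ± 0.13 SE and did not pass the threshold. It was called in 2 of the 19 settings, without case replicate 2 (0.56) and with voom on recovered reads (0.41), and after every library was rescaled to the same FPKM sum it was 0.21. Relative to the control mean it was 0.69, 0.15, and 0.44 in the case replicates.

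The caveolins differed little between the groups. *CAV1* (ENSG00000105974) and *CAV2* (ENSG00000105971) are neighbours on chromosome 7, from 116524994 to 116561179 and from 116287380 to 116508541. *CAV1* was at 52.9, 51.9, and 50.7 FPKM in the controls and at 46.0, 51.6, and 46.6 FPKM in the case replicates. *CAV2* was at 20.4, 20.8, and 21.3 FPKM and at 18.6, 19.4, and 20.8 FPKM. Both genes overlapped between the groups, and their log2 fold changes were -0.02 ± 0.07 SE and 0.00 ± 0.08 SE. Over the 19 settings *CAV1* ranged from -0.23 to 0.01 and *CAV2* from -0.21 to 0.10. The lowest value of each came from rescaling every library to the same FPKM sum, which moved the median of all tested genes to -0.19.

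Of the neck genes, *EHD2* (ENSG00000024422, chromosome 19 from 47713422 to 47743134) fell. Its FPKM was 48.5, 50.4, and 49.7 in the controls and 35.8, 35.1, and 32.4 in the case replicates, without overlap and with coefficients of variation of 1.96% and 5.14%. In FPKM before scaling between libraries, the case mean was 0.695 of the control mean. After scaling, the log2 fold change was -0.43 ± 0.08 SE, and the 3 case replicates stood at -0.31, -0.46, and -0.53. The gene was not a DE gene without control replicate 1, 2, or 3 (log2 fold changes -0.45, -0.42, and -0.43) or without case replicate 3 (-0.38), while the direction was kept.

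*PACSIN2* (ENSG00000100266, chromosome 22 from 42835412 to 43015149) was at 27.7, 27.7, and 26.8 FPKM in the controls and at 27.4, 28, and 25.6 FPKM in the case replicates. Its log2 fold change was 0.07 ± 0.08 SE, and its sign turned under 3 settings of scaling. It overlaps *ARFGAP3* (0.07 ± 0.10 SE) in the annotation, and how the counting treated reads that fall in both is not given in the sources used here. *PACSIN3* (ENSG00000165912, chromosome 11 from 47177522 to 47186443) was at 22.2, 20.8, and 21.1 FPKM and at 21.3, 15.9, and 17.0 FPKM. In these FPKM values case replicate 1 lay within the control range and case replicates 2 and 3 below it. After scaling between libraries, case replicates 1, 2, and 3 stood at 0.15, -0.38, and -0.25 in log2 relative to the control mean. Case replicate 1 thus had the opposite sign to the other case replicates, with a control SD of 0.05. The log2 fold change of *PACSIN3* was -0.16 ± 0.13 SE, -0.05 without case replicate 2, and -0.31 without case replicate 1. It was called in 2 of the 19 settings, the last of these and the same FPKM sum (-0.37).

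**Figure D2:**
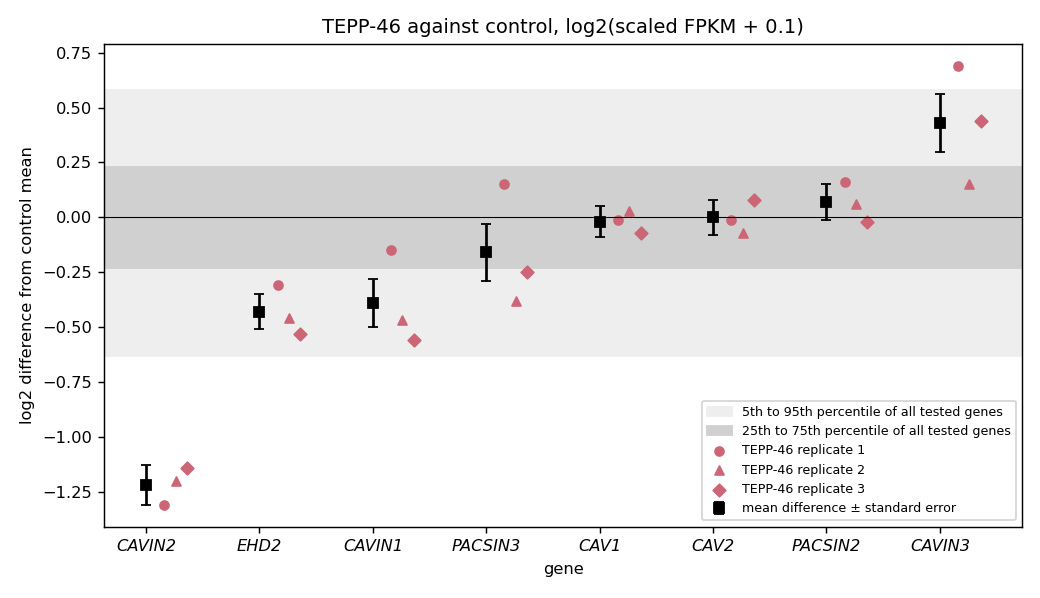
Log2 difference from the control mean (y axis) of each caveola gene (x axis), with squares for the mean difference ± standard error and symbols for the 3 case replicates, over bands for all tested genes. *CAVIN2* at -1.22 lies below the outer band of all tested genes, which starts at -0.63, *EHD2* and *CAVIN1* lie between it and the lower quartile (-0.23), and *CAVIN3* lies above the upper quartile (0.23) and inside the outer band, which ends at 0.58.

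The same values were also taken as shares of the sum, as a description. *CAVIN1* made up 62.4%, 62.8%, and 61.7% of the summed FPKM of the 8 genes in the controls and 57.8%, 56.3%, and 53.7% in the case replicates. The share of *CAVIN3* went from between 8.41% and 9.56% to between 12.3% and 15.2%, and that of *CAVIN2* from between 2.00% and 2.17% to between 0.856% and 1.19%. The summed FPKM was 638, 642, and 639 in the controls and 559, 496, and 476 in the case replicates. Without *CAVIN1* it was 238 to 245 and 217 to 236 FPKM, so in these values the lower sum lay mainly in *CAVIN1*. The sums are of FPKM as deposited, without the scaling behind the fold changes. Its factors were 1.03, 1.03, and 1.04 in the controls and 0.926, 1.01, and 0.975 in the case replicates. Division by them would raise the sums of case replicates 1 and 3 and lower the others. Shares and ratios within a library do not change with it. The ratio of *CAVIN3* to *CAVIN2* was 4.22 ± 0.176 in controls and 13.6 ± 3.21 in the case group (SD, n = 3). The ratio of *CAVIN1* to *CAV1* was 7.69 ± 0.134 and 5.97 ± 0.906, with case replicate 1 at 7.02 near the control values. The ratio of *CAV1* to *CAV2* was 2.49 ± 0.103 and 2.46 ± 0.211.

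**Figure D3:**
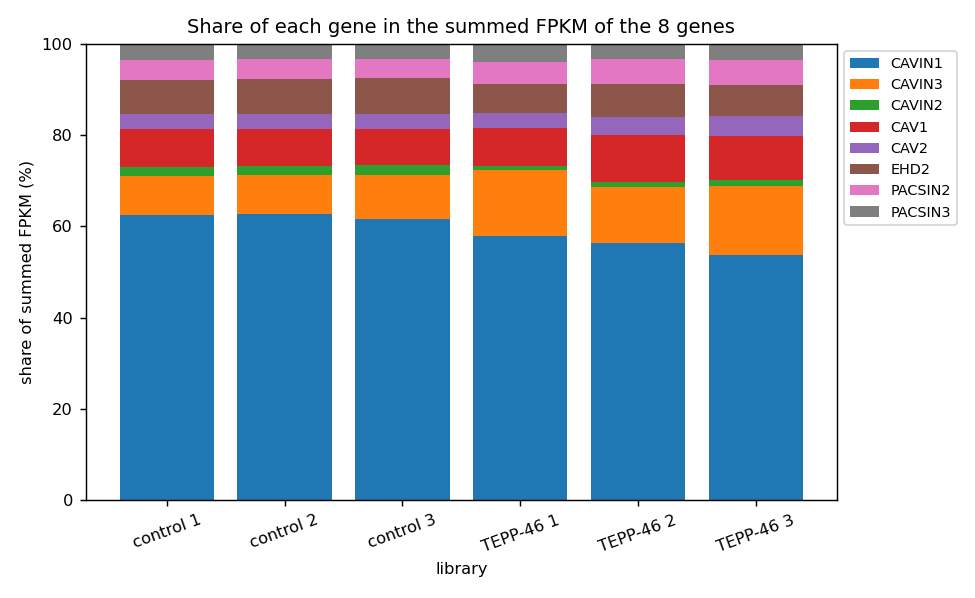
Share of each gene (stacked bars, %) in the summed FPKM of the 8 caveola genes in each library. The blue part, *CAVIN1*, is between 61.7% and 62.8% in the control libraries and between 53.7% and 57.8% in the case libraries, and the orange part, *CAVIN3*, is wider in the case libraries.

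The genes beside the caveola genes on the chromosomes were examined, taking the nearest tested protein-coding gene on each side. Of 14 such genes, 3 were upregulated and 2 downregulated DE genes, beside 7.77% and 5.45% of all tested genes. *STAT3*, a transcription factor gene that lies 13.9 kb from *CAVIN1*, had a log2 fold change of -0.60 ± 0.10 SE (adjusted p = 0.0157 by limma), while *ATP6V0A1* on the other side had -0.12 ± 0.10 SE. On one side of *CAVIN2* the nearest tested gene was *SLC39A10*, a zinc importer gene 3728.9 kb away, with -1.11 ± 0.14 SE (adjusted p = 0.00746), and *NABP1*, 93.2 kb away on the other side, stood at 0.47 ± 0.15 SE (adjusted p = 0.0682). *TES* beside *CAV2* was upregulated (0.50 ± 0.09 SE, adjusted p = 0.0165 by limma), and *MET* beyond *CAV1* had -0.30 ± 0.15 SE, while the caveolin genes between them were near 0. Near *CAVIN3*, *SMPD1* was upregulated (0.63, adjusted p = 0.0483 by limma), and near *PACSIN3*, the DNA repair gene *DDB2* was (0.36, adjusted p = 0.0307 by limma). Both neighbours of *EHD2*, *BICRA* at 10.1 kb and *NOP53* at 2.4 kb, were not DE genes (-0.12 and 0.14). The directions of the 5 DE neighbours held in all 19 settings, but without control replicate 2 none of them was called, and with the same FPKM sum only *STAT3* and *SLC39A10* were.

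Expression of other genes tied to caveolae was followed in 5 lists. Relatives of the caveola genes and the flotillins, which mark other membrane rafts, formed the first. *CAV3*, the caveolin of muscle, was listed at 0 in every library, and *CAVIN4*, the cavin of muscle, was at 0.238 to 0.341 FPKM on 10 to 16 reads. *PACSIN1*, a neuronal relative, was also below the filter at 0.635 ± 0.138 FPKM in controls and 0.267 ± 0.0277 in the case group (SD, n = 3). Of the 5 tested relatives, 0 were DE genes by limma, beside 13.2% of all tested genes. By an unadjusted p under 0.05 there was 1, beside 32.9% of all tested genes, and voom on recovered reads called 1, beside 20.6%. With quantile normalization 2 relatives were called lower, beside 6.58% of all tested genes, and with the same FPKM sum 4 were, beside 17.6%, while 0 were called higher in either. *EHD3* was the one with the low unadjusted p, with 5.24, 5.25, and 5.03 FPKM in the controls and 3.72, 4.17, and 3.29 in the case replicates (log2 fold change -0.38 ± 0.11 SE, adjusted p = 0.0518). *EHD1*, the closest in level to *EHD2*, had 0.27 ± 0.12 SE and *EHD4* -0.10 ± 0.10 SE. The most abundant relative, *FLOT1*, was at 141 ± 4.21 and 120 ± 17.0 FPKM.

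Partners that act on caveolae included 14 tested genes, of which 3 were downregulated and 0 upregulated DE genes by limma, beside 5.45% and 7.77% of all tested genes. Their median log2 fold change was -0.07, and -0.28 with the same FPKM sum in every library, where all tested genes had -0.19. *FLNA*, which encodes filamin A and links caveolae to actin, was at 276, 273, and 256 FPKM in the controls and at 183, 180, and 143 FPKM in the case replicates (log2 fold change -0.58 ± 0.12 SE, adjusted p = 0.0215 by limma). By its mean over all libraries it was the most abundant of the list, while in the case replicates *VCP* was higher (196, 194, and 190 FPKM). *PRKCA*, the gene of protein kinase C alpha, to which cavin-2 binds, went from 6.99 ± 0.247 to 4.59 ± 0.794 FPKM (SD, n = 3) with a log2 fold change of -0.52 ± 0.12 SE (adjusted p = 0.0285 by limma). *ROR1*, a receptor-like scaffold for cavin-1 and caveolin-1, went from 3.26 ± 0.118 to 1.99 ± 0.391 FPKM (log2 fold change -0.61 ± 0.13 SE, adjusted p = 0.0259 by limma). All 3 were lower in each case replicate than in each control replicate. *PRKCD*, the partner of cavin-3, had 0.25 ± 0.08 SE (adjusted p = 0.0836), *DNM2*, whose product cuts caveolae from the membrane, had -0.30 ± 0.12 SE (adjusted p = 0.136), and *VCP*, which takes part in the turnover of caveolin-1, had 0.05 ± 0.08 SE. After correction for exon length *ROR1* was the 1 DE gene among the partners (-0.53, adjusted p = 0.0291 by limma), beside 10.9% of all tested genes. *FLNA* then had -0.37 (adjusted p = 0.108) and *PRKCA* -0.29 (adjusted p = 0.0949). With the replicate number added as a block, *ROR1* stayed at -0.53 but was not called (adjusted p = 0.0547 by limma), beside 6.57% of all tested genes. Without case replicate 2, which stood apart, 3 partners were called higher and 4 lower, beside 14.4% and 11.4% of all tested genes. Leaving out control replicate 1, 2, or 3 or case replicate 3 left 0, where 0.507% to 1.23% of all tested genes were called.

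Receptors, channels, and enzymes that have been described in caveolae had a median log2 fold change of -0.35 over 10 tested genes. It was -0.22 with the exon length correction and -0.56 with the same FPKM sum. Of these genes, 2 were downregulated and 0 upregulated DE genes by limma, beside 5.45% and 7.77% of all tested genes. An unadjusted p under 0.05 was reached by 7, beside 32.9% of all tested genes, and 7 were lower in the case group without overlap, beside 19.2%. That unadjusted p was also reached by 7 of the 14 tested partners and 5 of the 8 clathrin genes. Without overlap, 5 partners were lower and 1 higher, and 3 clathrin genes were lower and 3 higher. Because the lists were chosen with earlier results of these data known, nothing is read from these counts. *BMPR2*, a receptor of bone morphogenetic proteins, was at 2.82, 3.18, and 2.99 FPKM in the controls and at 1.21, 2.18, and 1.66 FPKM in the case replicates (log2 fold change -0.74 ± 0.18 SE, adjusted p = 0.0343 by limma). *IGF1R*, the receptor of insulin-like growth factor 1, was at 6.58 ± 0.186 and 4.05 ± 0.825 FPKM (SD, n = 3), with a log2 fold change of -0.61 ± 0.12 SE (adjusted p = 0.0223 by limma). With the exon length correction *IGF1R* had -0.33 and *BMPR2* -0.49 (adjusted p = 0.0398 and 0.0496 by limma). With the replicate number added as a block they stayed at these values but were not called (adjusted p = 0.0793 and 0.064 by limma). In both genes case replicate 2 was the highest of the case group. *EGFR* (-0.35), *TGFBR1* (-0.36), *TRPC1* (-0.36), and *ADCY6* (-0.38) had adjusted p between 0.0524 and 0.106 by limma. Leaving out control replicate 1, 2, or 3 or case replicate 3 left 0 DE genes in this list, beside 0.507% to 1.23% of all tested genes, and leaving out case replicate 2 gave 6, beside 25.8%.

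Caveolae depend on cholesterol, sphingomyelin, and phosphatidylserine, and a list of genes for these lipids had 12 tested members. Over them the median log2 fold change was 0.07, with 2 upregulated and 0 downregulated DE genes by limma, beside 7.77% and 5.45% of all tested genes. At an unadjusted p under 0.05 there were 4 of the 12, beside 32.9% of all tested genes. Without overlap of the groups 3 were higher and 2 lower, beside 20.6% and 19.2%. The lowest log2 fold change was that of *ABCA1* (-0.68 ± 0.28 SE, adjusted p = 0.141 by limma). *NPC2*, which carries cholesterol out of lysosomes, rose from 47.3 ± 0.933 to 57.3 ± 3.73 FPKM (SD, n = 3), with a log2 fold change of 0.37 ± 0.09 SE (adjusted p = 0.0342 by limma). With the same FPKM sum, quantile normalization, and the exon length correction it was 0.15, 0.22, and 0.25. *NPC2* was not called in these settings (adjusted p = 0.129, 0.0582, and 0.0517 by limma). *SMPD1*, the acid sphingomyelinase gene named above beside *CAVIN3*, was at 1.91, 2.80, and 1.93 FPKM in the controls and at 2.92, 3.06, and 3.69 FPKM in the case replicates on 92 to 156 reads. *NPC2* and *SMPD1* lost the call when control replicate 1, 2, or 3 or case replicate 3 was left out. In these settings 0.507% to 1.23% of all tested genes were called. The log2 fold changes were then 0.38, 0.35, 0.37, and 0.33 for *NPC2* and 0.54, 0.80, 0.54, and 0.53 for *SMPD1*. Of the 19 settings, *SMPD1* kept the call in 7. With the same FPKM sum in every library 0 genes of this list were called higher and 1 lower, beside 2.82% and 17.6% of all tested genes, and the median was -0.14.

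Clathrin and its adaptor AP-2 form the other main coat of the plasma membrane. Of 8 tested genes, 2 were upregulated and 0 downregulated DE genes by limma, beside 7.77% and 5.45% of all tested genes, and the median log2 fold change was 0.07. *CLTA*, a clathrin light chain and the most abundant of the list, was at 153, 144, and 140 FPKM in the controls and at 198, 184, and 208 FPKM in the case replicates (log2 fold change 0.52 ± 0.09 SE, adjusted p = 0.0163 by limma). *AP2S1*, the small AP-2 subunit, was at 96.3 ± 2.53 and 125 ± 15.2 FPKM (SD, n = 3), with a log2 fold change of 0.46 ± 0.12 SE (adjusted p = 0.0424 by limma). With the same FPKM sum, quantile normalization, and the exon length correction, *CLTA* had 0.31, 0.29, and 0.40 and remained called. *AP2S1* had 0.25, 0.26, and 0.32 in these settings. It was called only with quantile normalization (adjusted p = 0.0656, 0.0453, and 0.0517 by limma). The heavy chain gene *CLTC* (-0.36 ± 0.10 SE, adjusted p = 0.0556) and the large subunit gene *AP2B1* (-0.32 ± 0.09 SE, adjusted p = 0.0568) had the opposite sign and did not pass the threshold. The direction of this list turned with the scaling, as did the balance of all tested genes. For FPKM as deposited the median was -0.02, with 2 genes called higher and 3 lower, beside 4.87% and 8.27% of all tested genes. For the same FPKM sum it was -0.15, with 1 higher and 3 lower, beside 2.82% and 17.6%. Genes of both directions were also called when the filter was raised to 1 FPKM and without case replicate 2 (2 higher and 2 lower in each, beside 10.2% and 7.13% of all tested genes and 14.4% and 11.4%). Without control replicate 1, 2, or 3 or case replicate 3 neither *CLTA* nor *AP2S1* was called, beside 0.507% to 1.23% of all tested genes. Their log2 fold changes were then 0.56, 0.51, 0.49, and 0.48 for *CLTA* and 0.47, 0.44, 0.47, and 0.44 for *AP2S1*. No test was made of a difference between the 2 coats.

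**Figure D4:**
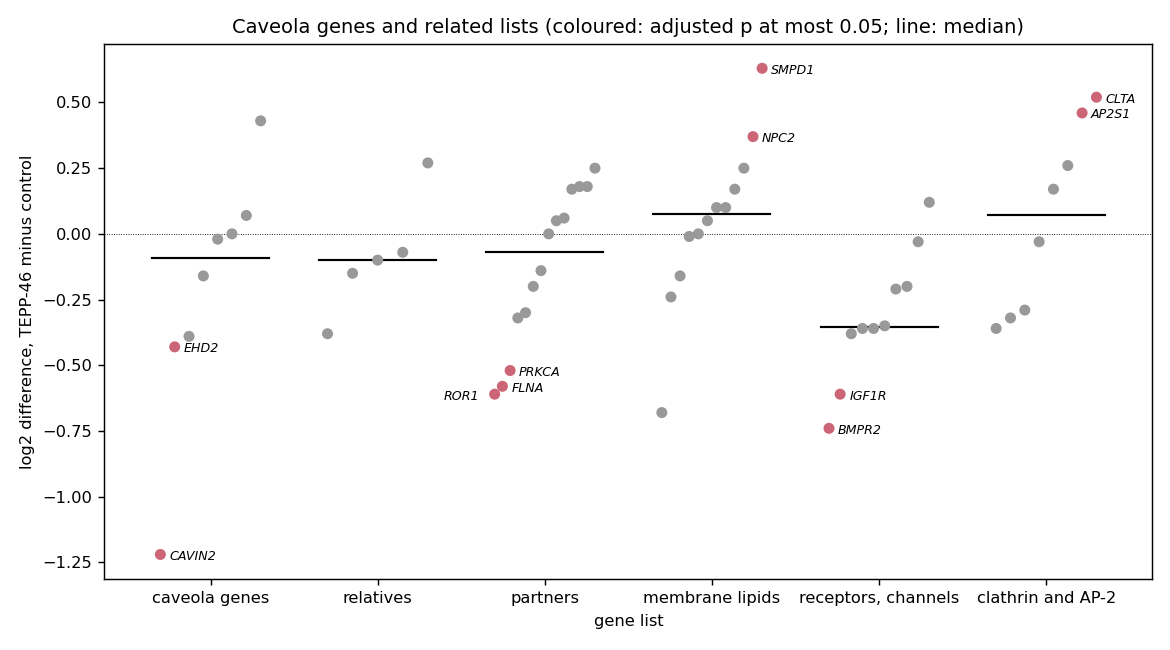
Log2 difference, TEPP-46 minus control (y axis), of every tested gene in the caveola genes and the 5 related lists (x axis), with DE genes coloured and named and lines for medians. *CAVIN2* lies lowest of all at -1.22, and DE genes of the partners and receptors are all lower, and those of the lipid and clathrin lists are higher. Without case replicate 2 the caveola genes and the partners, lipid, and clathrin lists held DE genes of both directions, as did the clathrin list under other scalings. With voom on recovered reads the caveola genes and the lipid and clathrin lists held both directions.

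Markers of cell identity that moved with the groups were recorded beside these results. The epithelial cadherin gene *CDH1* was at 3.42 ± 0.0811 FPKM in controls and 2.05 ± 0.248 after TEPP-46 (SD, n = 3), with a log2 fold change of -0.63 ± 0.11 SE (adjusted p = 0.0157 by limma). It was the 1 DE gene of the 5 epithelial markers, beside 13.2% of all tested genes. Their summed level was 924, 899, and 896 FPKM in the controls and 902, 719, and 819 FPKM in the case replicates. Of the 5 fibroblast markers, 3 were in the table, led by *COL1A1*, with sums of 0.400, 0.308, and 0.324 FPKM in the controls and 0.165, 0.231, and 0.241 FPKM in the case replicates, all near 0. Of the 4 leukocyte markers, 2 were in the table, at no more than 0.0297 FPKM. *CDH1* lost its call without control replicate 1, 2, or 3 (-0.64, -0.61, and -0.63) or case replicate 3 (-0.61). Noncoding and mitochondrial transcripts, picked from the DE genes, also moved with the groups. The log2 fold changes were 2.85 ± 0.47 SE for *MALAT1*, 2.51 ± 0.47 SE for *RN7SL2*, and 0.65 ± 0.09 SE for *MT-CO2*. In the study, the share of reads in introns was higher in case replicates 2 and 3 than in every control, and lower in case replicate 1. The part of these markers and transcripts in the differences of the caveola genes and the lists was not tested.

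Among 6646 other genes whose mean FPKM reached 5, those with the pattern most like *CAV1* over the 6 libraries were *M6PR*, *ZNF646*, and *APLP2*, with Pearson's r of 0.971, 0.939, and 0.937. For *CAVIN1* they were *MYD88*, *NMT1*, and *DVL3*, with r of 0.999, 0.998, and 0.997. The 6 libraries of these correlations differ in depth and fall into the same 2 groups. These r are the highest among 6646 genes over only 6 libraries, and nothing is read from their size. The log2 fold changes of *MYD88*, *NMT1*, and *DVL3* were -0.25, -0.11, and -0.16, so their differences between the groups were smaller than that of *CAVIN1*.

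**Figure D5:**
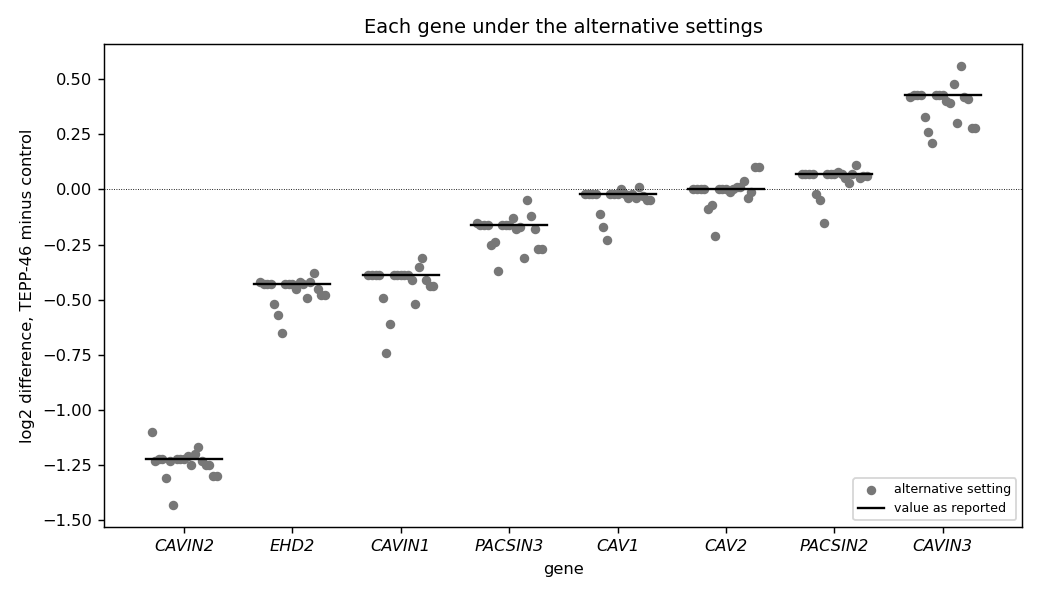
Log2 difference, TEPP-46 minus control (y axis), of each caveola gene (x axis) under the 19 alternative settings (points) and as reported (lines). *CAVIN2* lies between -1.43 and -1.10, *EHD2* between -0.65 and -0.38, *CAVIN1* between -0.74 and -0.31, and *CAVIN3* between 0.21 and 0.56, while *CAV1*, *CAV2*, and *PACSIN2* have points on both sides of 0.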

How the data were processed

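The table covers 3 control and 3 case libraries of HK-2 cells. Its FPKM values are used as the authors deposited them. The authors aligned filtered reads to GRCh38.p13 with HISAT2 2.1.0, counted them on genes with HTSeq 0.6.0, and scaled each count by the length of the gene and the reads of the library. RNA selection, strandedness, and annotation version are not given in the sources used here. Symbols and positions were taken from GENCODE annotation of GRCh38 by Ensembl identifier (29063 of 29483 matched).

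The FPKM values are whole multiples of what 1 read is worth. With exon lengths from the annotation and the ratios of low genes between libraries, library sizes were derived. Whole reads (within 0.01 of a whole number in each library) were recovered for 96.8% of the genes above 0. For 12598 genes they followed from the annotation length, and for 14427 from the smallest multiple that made every library whole. The caveola genes were of the second kind, so their read numbers are the smallest that fit. These reads count no molecular identifiers, so counting errors cover counting only.

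Each library was scaled by a median-of-ratios factor (0.926 to 1.04), 0.1 was added, and log2 values of genes whose mean FPKM reached 0.5 were tested in R 4.3.3 with limma 3.58.1 (intensity trend, no covariates, Benjamini-Hochberg over 13599 genes). Fold changes are on this scale, which understates changes of low genes. The median SD between replicates was 0.09 in the control and 0.19 in the case group. The procedure was tested on simulated data, but the outcome is not reported here and nothing is read from it. The caveola genes and the lists were chosen with earlier results of these data known. Genes named from a list are its DE genes and its most abundant gene (the latter is not reported here for 2 lists), and the rest of the named genes were picked with their values in view. The alternatives were pseudocounts of 1 and 0.01, other filters, scalings, and variance models, the replicate number as a block, and leaving out each library. Voom on recovered reads and a loess correction for exon length, alone and with the block, were added after the data had been seen.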

Additional observations from a re-analysis of the deposited data

How the results depend on the processing

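The number of DE genes, 1797 as reported, was 880 without the intensity trend, 524 if all genes above 0 were tested, 2770 with the same FPKM sum in every library, 2807 with voom, 894 with the exon length correction and the block together, and from 69 to 3512 with single libraries left out (69 without control replicate 2 and 3512 without case replicate 2). With FPKM as deposited 662 genes were upregulated and 1124 downregulated, and with the same FPKM sum 383 and 2387, against 1056 and 741 as reported, and the same FPKM sum moved the median log2 fold change to -0.19. The medians were then -0.30 for the caveola genes, -0.32 for the relatives, and -0.13 for the neighbours.

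For the caveola genes, 4 were called lower with the same FPKM sum, beside 17.6% of all tested genes. With voom 1 was called higher and 3 lower, beside 9.54% and 11.1%. With single libraries left out from 1 to 4 were called, beside 0.507% to 25.8%. The sign of *CAV1* turned without case replicate 3 (0.01). That of *CAV2* turned with FPKM as deposited (-0.09), quantile normalization (-0.07), the same FPKM sum (-0.21), voom (-0.01), and without control replicate 1 (-0.01) or case replicate 3 (-0.04), against 0.04 without case replicate 2. That of *PACSIN2* turned with FPKM as deposited (-0.02), quantile normalization (-0.05), and the same FPKM sum (-0.15).

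Testing all genes above 0 gave 0 called partners, 0 receptors, 0 clathrin genes, 0 lipid genes, and 3 neighbours. In that setting 1.88% of the 27922 tested genes were called. With a mean FPKM of at least 1 there were 1 relative and 4 clathrin genes, beside 17.4% of all tested genes. With FPKM as deposited there were 5 partners, 1 relative, 5 clathrin genes, 1 lipid gene, and 3 neighbours, beside 13.1%. Quantile normalization gave 5 partners, 2 relatives, 5 clathrin genes, and 1 lipid gene, beside 13% of all tested genes. The same FPKM sum gave 7 partners, 7 receptors, 4 relatives, 4 clathrin genes, 1 lipid gene, and 2 neighbours, beside 20.4%. Without the intensity trend there were 1 partner, 1 receptor, 1 clathrin gene, 0 lipid genes, and 3 neighbours, beside 6.47%. Voom gave 6 receptors, 1 relative, and 5 clathrin genes, beside 20.6% of all tested genes. The exon length correction gave 1 partner, 1 clathrin gene, and 1 lipid gene, beside 10.9% of all tested genes. Together with the block it gave 0 partners, 0 receptors, 1 clathrin gene, and 0 lipid genes, beside 6.57%. With single libraries left out there were 0 to 7 partners, 0 to 6 receptors, and 0 to 1 relatives. There were also 0 to 4 clathrin genes, 0 to 3 lipid genes, and 0 to 6 neighbours. In these settings 0.507% to 25.8% of all tested genes were called. The cause of these changes was not tested.

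Replicate numbers are shared between the groups, but deviations of libraries with the same number correlated by 0.0636, 0.0999, and -0.0534, and 2 of 6 libraries correlated best with their own number. The numbers were therefore not taken as pairs. With the replicate block there were 1698 DE genes, or 12.5% of all tested genes. The block gave 2 caveola genes, 3 partners, 2 receptors, 0 relatives, 3 clathrin genes, 1 lipid gene, and 4 neighbours. The lowest count of a caveola gene was 258 reads, with a counting error of 6.23%.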
